A study of Mus musculus with 9 samples.

Results

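The genes of glycerolipid and phospholipid synthesis and turnover were described in mouse brain tumor stem cells (BTSC) after Cas9 targeting of Gpd1. They were taken by symbol from a list of 49 genes, a list drawn up with earlier results of these data known, and all 49 were found among the 21899 genes of the deposited table. Poly(A) RNA had been sequenced from 9 libraries in 3 groups of 3. In the sgRNA1 KO and sgRNA2 KO groups, Gpd1 had been targeted with Cas9 from the lentiCRISPR v2 vector and the guide sgRNA1 or sgRNA2, and the control group held BTSC with no such label. Per the labels' protocols, targeted cells were transfected, selected with puromycin, grown as colonies from single cells and checked by western blot and sequencing. The labels do not say whether the controls passed through a vector, puromycin or colony picking, so these steps and the loss of Gpd1 cannot be told apart. Nor do they give the tumor model, the strain or the age. Their titles number the KO libraries of a guide out of sequence and the controls in sequence, without saying whether these are colonies, cultures or repeats, so p-values measure only the spread between these libraries.

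Glycerol-3-phosphate is the backbone of glycerolipids. It is acylated to lysophosphatidate and then to phosphatidate, from which one route leads through diacylglycerol to triglyceride and to phosphatidylcholine and phosphatidylethanolamine, and another through CDP-diacylglycerol to phosphatidylinositol, phosphatidylglycerol and cardiolipin. The cytosolic enzyme encoded by Gpd1 makes glycerol-3-phosphate from the glycolytic intermediate dihydroxyacetone phosphate, and with the mitochondrial enzyme of Gpd2 it forms a shuttle for reducing equivalents.

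The deposited values were normalized read counts, and totals summed to between 39781901 and 42975283 per library after that scaling, so the sequencing depth itself is not given. Across the 15827 genes tested, sgRNA1 KO replicate 3 and sgRNA2 KO replicate 1 lay nearest the controls (r = 0.966 and 0.969 with the control mean of log2 values, against 0.916 to 0.942 for the other 4 KO libraries). The summed level of 8 astrocyte markers was 89489 to 220997 in KO and 70983 to 76141 in control, and that of 8 neural and glioma stem cell markers was 144114 to 211305 in KO and 187510 to 207606 in control, with Fabp7, Olig2, Nes and Sox2 the most abundant of the 8 on average and Prom1 the least. The 6 pericyte and fibroblast markers summed to 48 to 384 in KO and 2230 to 2385 in control, most of it Acta2, the 6 endothelial markers to 95 to 259 in KO and 588 to 642 in control, and the 8 microglial markers to 34 to 64 in KO and 30 to 35 in control. Stmn2, Cdh5, Cldn5, Dcn, Lum, Cx3cr1, C1qa and C1qb of these lists and those that follow were not analysed here and count as 0 in the sums. The 8 oligodendrocyte lineage markers summed to 12530 to 33494 in KO and 5447 to 7296 in control, and the 8 neuron markers to 47478 to 125776 in KO and 42758 to 44057 in control. Mbp, Mog, Snap25 and Slc17a7 averaged under 10, and Map2 and Cnp made up most of the neuron and oligodendrocyte sums. The part of these shifts in the results below was not tested. Fewer cells of a type and less RNA per cell cannot be told apart in bulk RNA.

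More of the lipid genes were higher than lower in KO cells. In limma over all genes, with the 6 KO libraries set against the 3 controls, 20 of the 47 genes tested rose and 5 fell at a Benjamini-Hochberg adjusted p of 0.05, and 22 did not pass. Of all genes tested, 19.1% rose, 20.2% fell and 39.3% passed in either direction, against 42.6%, 10.6% and 53.2% of the 47. The median log2 fold change was 0.40 over the 47 genes and -0.01 over all genes. KO and control values did not overlap for 27 of the 47 genes (57.4%, against 44.8% of all genes), 20 with higher and 7 with lower KO values (21.1% and 23.8% of all genes). Of the 25 genes that passed, 18 changed by less than 2-fold. All 47 had a mean of at least 10 in KO and in control. Etnk2, an ethanolamine kinase gene, and Lpcat2, a lysophosphatidylcholine acyltransferase gene, averaged under 10 over the 9 libraries and were not tested. Their normalized read counts lay between 4 and 7 in KO and 7 and 11 in control for Etnk2, and between 0 and 3 in KO and 0 and 2 in control for Lpcat2.

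The counts moved with the libraries used, as did those over all genes. Without control replicate 1, 2 or 3, 13, 11 or 11 of the 47 genes rose and 3, 1 or 1 fell, where 2025, 1465 or 1559 of the 15827 genes rose and 1879, 1312 or 1447 fell. Without 1 of the KO libraries, 14 to 23 of the 47 rose and 4 to 7 fell (2434 to 3639 and 2457 to 3958 of all genes). The fewest rose without sgRNA2 KO replicate 2 and the most without sgRNA2 KO replicate 3. With sgRNA1 KO replicate 3 and sgRNA2 KO replicate 1 both left out, 23 rose and 8 fell (3687 and 3962 of all genes). This added Gpam, Agpat3 and Dgat2 to the rises and Gpd1, Gpd2 and Lpin2 to the falls. Both libraries were picked because they lay nearest the controls, so leaving them out favors more calls. Over all genes the calls went from 6227 to 7649, and genes that passed only in this fit gain no support from it. The median absolute log2 ratio of the 47 genes to the control mean was 0.35 and 0.38 in these 2 libraries and 0.56 to 0.68 in the other KO libraries, against 0.03 to 0.05 in the controls. With quantile normalization 24 rose and 3 fell (3151 and 2825 of all genes). With a variance for each group 26 rose and 8 fell (4188 and 4661 of all genes).

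**Figure D1:**
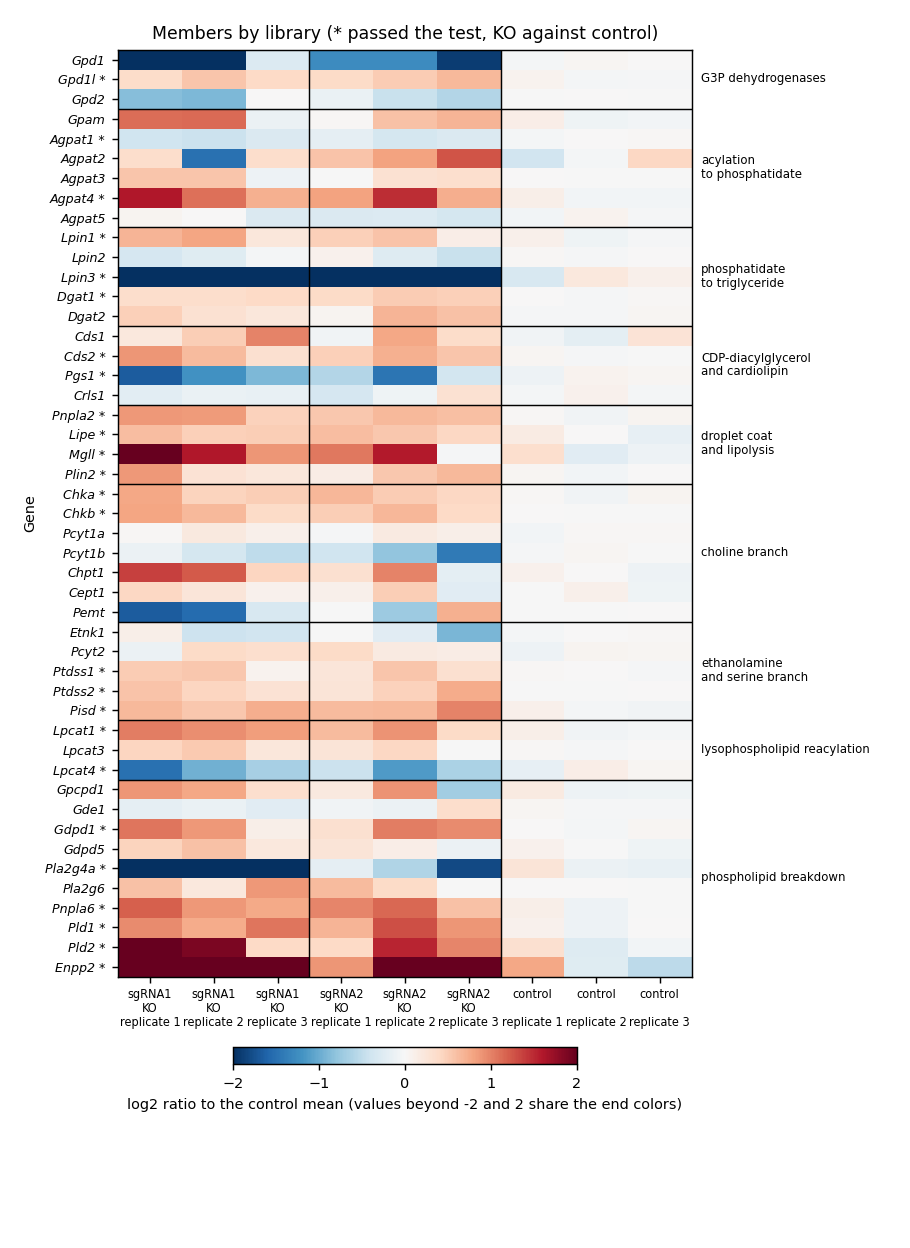
Log2 ratio of each gene tested to the control mean, with genes in rows grouped by role and libraries in columns, KO left of control; red is higher, blue is lower, and a star marks the 25 genes that passed. Most stars in the droplet block, the ethanolamine and serine block and the breakdown block are red across the 6 KO libraries. Lpin3 is blue in all 6.

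The targeted gene itself was lower in every KO library, to unequal extents. The guides and their 3 PAM bases (in capitals) are shown because they set where Gpd1 was cut, and each matched a single site in its main transcript.
sgRNA1: aaagtctgcattgtcggctcTGG
sgRNA2: tgcattgctacccacgatctTGG
The sgRNA1 site lies on the plus strand at chr15:99717620-99717639 of mm10, in coding sequence of exon 1 of 8, over codons 5 to 11. The sgRNA2 site lies on the minus strand at chr15:99718169-99718188, in coding sequence of exon 2, over codons 20 to 26. Counted from the PAM, the position at which Cas9 usually cuts lies in codon 10 for sgRNA1 and codon 21 for sgRNA2. Gpd1 had normalized read counts of 3299, 1347 and 21351 in cells with sgRNA1 and 10812, 10812 and 6945 in cells with sgRNA2, against 25106, 26566 and 25836 in control. The lowest library, sgRNA1 KO replicate 2, held 5.21% of the control mean and sgRNA1 KO replicate 3 held 82.6%, and no KO library reached the controls. The pooled change (log2 -1.99, SE 0.72) fell short of the threshold (adjusted p = 0.0516 in limma), while a two-sided exact permutation test over the 84 splits gave p = 0.0476. The permutation p lay between 0.0536 and 0.107 in 8 of the 9 tests that left out 1 library, and at 0.0357 without sgRNA1 KO replicate 3. In limma it passed without sgRNA1 KO replicate 2 (adjusted p = 0.0401), sgRNA1 KO replicate 3 (0.0183) or sgRNA2 KO replicate 1 (0.0497), with both nearest libraries left out (log2 -2.59, 0.0116) and with a variance for each group (0.00369). Passes without the libraries nearest the controls add no support, since leaving these out favors a pass. The adjusted p was higher without sgRNA1 KO replicate 1 (0.0892) or sgRNA2 KO replicate 2 or 3 (0.0618 and 0.0677), and ran from 0.117 to 0.137 without 1 of the controls. One value per gene cannot separate edited from unedited transcripts.

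Of the other dehydrogenase genes, Gpd1l rose and Gpd2 did not pass. Gpd1l, which encodes a related dehydrogenase, had 6606, 7538 and 6754 normalized reads in cells with sgRNA1 and 6691, 7247 and 8021 in cells with sgRNA2, against 5337, 4983 and 5017 in control. All 6 KO libraries lay above all 3 controls, including the library that kept most Gpd1 (log2 0.48, SE 0.09, adjusted p = 0.00496 in limma). The mitochondrial Gpd2 had 5560, 5328 and 10079 normalized reads in cells with sgRNA1 and 9080, 7308 and 6644 in cells with sgRNA2, against 9913, 10089 and 9954 in control. Here sgRNA1 KO replicate 3 stood among the controls and the other 5 KO libraries below them, and the pooled change did not pass (log2 -0.49, SE 0.20, adjusted p = 0.0779 in limma). It passed without sgRNA1 KO replicate 3 (adjusted p = 0.0244) or sgRNA2 KO replicate 1 (0.0492), without both (log2 -0.70, SE 0.13) and with a variance for each group (0.00879). Both libraries lay nearest the controls, so leaving them out favors a pass and adds no support.

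**Figure D2:**
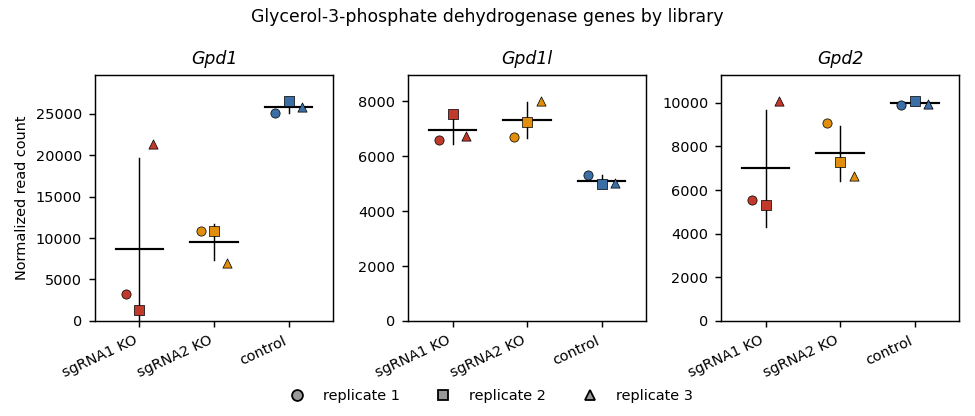
Levels of the 3 dehydrogenase genes by library, as normalized read counts (y axes from 0), in sgRNA1 KO, sgRNA2 KO and control; bars are means and vertical lines SD (n = 3), and the lower SD line of Gpd1 in sgRNA1 KO is clipped at 0. Gpd1l is above the controls in all 6 KO libraries, whereas Gpd1 in sgRNA1 KO replicate 3 (21351) is close to them.

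Per kilobase of exon, Gpd1 had the highest level of the 49 genes in control (8725 ± 247 normalized reads per kb, SD, n = 3). Its KO mean was 3071 ± 2409 (SD, n = 6), raised by the 7211 of sgRNA1 KO replicate 3, and it was the highest in 3 of the 6 KO libraries. Mgll was the highest in sgRNA1 KO replicate 1 (3950 normalized reads per kb), Lpcat1 in sgRNA1 KO replicate 2 (2978) and Gde1 in sgRNA2 KO replicate 3 (3024). The 3 dehydrogenase genes together fell to 5598 ± 2645 normalized reads per kb in KO (SD, n = 6), against 11260 ± 226 in control (SD, n = 3). Gpd1 made up 47.7% ± 19.7 of this sum in KO and 77.5% ± 0.66 in control, while Gpd1l made up 30.5% ± 14.8 in KO and 8.95% ± 0.51 in control (SD, n = 6 and 3). In sgRNA1 KO replicate 2 the share of Gpd1l reached 53.9%, above the 16.5% of Gpd1. The absolute gain of Gpd1l was small beside the loss of Gpd1: its level per kb was 1407 ± 111 in KO and 1007 ± 38.5 in control. These shares are descriptions and were not tested.

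**Figure D3:**
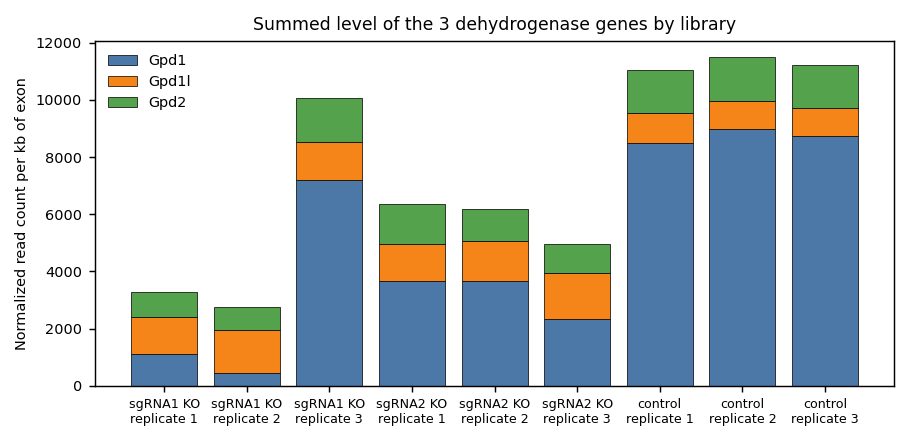
Stacked normalized read count per kb of exon (y axis) of Gpd1, Gpd1l and Gpd2 in each library (x axis), KO left of control. The control bars reach 11044 to 11494, sgRNA1 KO replicate 3 reaches 10080, and the other KO bars reach 2753 to 6356.

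Among the enzymes that build phosphatidate, Agpat4 rose and Agpat1 fell. The Agpat genes encode acyltransferases that turn lysophosphatidate into phosphatidate. Agpat4 had 2490, 1743 and 1332 normalized reads in cells with sgRNA1 and 1421, 2283 and 1357 in cells with sgRNA2, against 885, 782 and 785 in control, so that every KO library was above the controls (log2 1.07, SE 0.22, adjusted p = 0.00580 in limma). Agpat1 had 3136, 3082 and 3385 normalized reads in cells with sgRNA1 and 3660, 3268 and 3401 in cells with sgRNA2, against 4026, 4192 and 4241 in control. Every KO library was below the controls, by a small margin (log2 -0.32, SE 0.09, adjusted p = 0.0186 in limma). As a share of the 5 Agpat genes per kb, Agpat4 stood at 20.4% ± 3.92 in KO and 10.3% ± 0.82 in control, and Agpat1 at 35.3% ± 5.43 in KO and 47.3% ± 0.93 in control (SD, n = 6 and 3). Gpam, the mitochondrial acyltransferase gene for the first step, had 13904, 14007 and 5947 normalized reads in cells with sgRNA1 and 6502, 9642 and 10303 in cells with sgRNA2, against 7038, 6070 and 6197 in control. Its KO values overlapped the controls through the 2 libraries nearest to them, and it missed in limma (log2 0.57, SE 0.28, adjusted p = 0.125). It passed in limma with a variance for each group (adjusted p = 0.0237), without sgRNA1 KO replicate 3 (0.0415) and without both nearest libraries (log2 0.88, SE 0.16, 0.00357). Leaving out the libraries that overlapped the controls favors a pass, so the last 2 fits add no support. Agpat2, Agpat3 and Agpat5 did not pass (log2 0.31, 0.27 and -0.19). The Agpat1 call was lost without any 1 control (adjusted p = 0.0544, 0.0834 and 0.0862 in limma) and with quantile normalization (0.0646).

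The lipins, phosphatidate phosphatases that make diacylglycerol, were split, and Lpin3 showed the smallest adjusted p of the 47 genes tested. Lpin3 (chromosome 2, 160880670 to 160906002 of mm10) had 105, 55 and 182 normalized reads in cells with sgRNA1 and 184, 73 and 53 in cells with sgRNA2, against 670, 970 and 894 in control. The highest KO library was far under the lowest control, at 184 against 670 normalized reads (log2 -3.12, SE 0.43, adjusted p = 0.00129 in limma). Lpin1, the main lipin of fat and muscle, had 10428, 11253 and 7649 normalized reads in cells with sgRNA1 and 9066, 9679 and 7110 in cells with sgRNA2, against 6994, 6173 and 6418 in control. All KO libraries were above the controls, sgRNA2 KO replicate 3 only slightly (log2 0.48, SE 0.15, adjusted p = 0.0316 in limma), and Lpin2 did not pass (log2 -0.21). Per kb, Lpin3 made up 2.52% ± 1.46 of the lipin sum in KO and 20.1% ± 3.78 in control (SD, n = 6 and 3). Dgat1, one of a pair of enzymes that finish triglyceride, averaged 1684 ± 71.5 in KO and 1265 ± 21.5 in control (SD, n = 6 and 3, log2 0.41, SE 0.09, adjusted p = 0.00749 in limma). Dgat2, the other, was also higher in all 6 KO libraries, at 937 ± 150 in KO and 708 ± 19.4 in control, but missed (log2 0.39, SE 0.15, adjusted p = 0.0640 in limma). The Lpin1 call was lost without sgRNA1 KO replicate 1 (adjusted p = 0.0552), sgRNA2 KO replicate 2 (0.0621) or any 1 control (0.0642 to 0.121), and Dgat2 passed without sgRNA2 KO replicate 1 (0.0286), with both nearest libraries left out (0.0123), with quantile normalization (0.0446) and with a variance for each group (0.0107). For Dgat2, the passes without libraries nearest the controls add no support, since leaving these out favors a pass.

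All 4 droplet coat and lipolysis genes among the 47 rose, where 19.1% of all genes rose. Of 12 other droplet and lipolysis genes tested, 3 rose and 2 fell. Pnpla2, which encodes the lipase that removes the first fatty acid from triglyceride, had 2163, 2148 and 1642 normalized reads in cells with sgRNA1 and 1732, 1862 and 1802 in cells with sgRNA2, against 1202, 1129 and 1231 in control. Its KO libraries were all well above the controls (log2 0.66, SE 0.12, adjusted p = 0.00349 in limma). Lipe, the hormone-sensitive lipase gene that acts next, had 625, 568 and 575 normalized reads in cells with sgRNA1 and 626, 592 and 539 in cells with sgRNA2, against 457, 407 and 361 in control (log2 0.53, SE 0.12, adjusted p = 0.00999 in limma). Mgll, the monoglyceride lipase gene of the last step, had 20056, 14311 and 8690 normalized reads in cells with sgRNA1 and 9729, 14091 and 4629 in cells with sgRNA2, against 5907, 4012 and 4368 in control. In Mgll, sgRNA2 KO replicate 3 lay inside the control range and the other 5 KO libraries above it (log2 1.201, SE 0.39, adjusted p = 0.0347 in limma). Plin2, the perilipin gene of the droplet coat, averaged 3154 ± 626 in KO and 2267 ± 80.8 in control (SD, n = 6 and 3, log2 0.45, SE 0.16, adjusted p = 0.0480 in limma), with no overlap.

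Of these calls, that of Pnpla2 was kept whichever library was left out. Lipe missed in limma without control replicate 2 (adjusted p = 0.0510) or 3 (0.0646). Mgll missed without sgRNA1 KO replicate 1 or 2 (0.05002 and 0.0607), sgRNA2 KO replicate 2 (0.0673) or any 1 control (0.0594 to 0.127). Plin2 missed without sgRNA1 KO replicate 1 or 2 (0.0608 and 0.0511), sgRNA2 KO replicate 2 or 3 (0.0873 and 0.0607) or any 1 control (0.105 to 0.152) and without the filter (0.0583).

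Of the 4 genes of this group 3 have the letters CACGTG in a RefSeq promoter window, which runs over 300 bases around a start, as does Gpd1l. Among genes that passed, the letters stand upstream of a RefSeq start in Gpd1l, Lipe and Mgll, and these sites are shown, in capitals, to let their surroundings be compared.
Gpd1l: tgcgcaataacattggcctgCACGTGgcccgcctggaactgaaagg
Lipe: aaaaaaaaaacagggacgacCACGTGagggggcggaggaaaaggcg
Mgll: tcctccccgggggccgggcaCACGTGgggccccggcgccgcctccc
In GRCm38.p6 they are chr9:114934089-114934134 on the minus strand, chr7:25396117-25396162 on the minus strand and chr6:88724348-88724393 on the plus strand. The RefSeq start of the Lipe window lies inside the GENCODE gene (chromosome 7, 25379527 to 25398710), downstream of its outermost start. CACGTG is the core of the E-box read by USF, Myc and TFEB family factors, and it reads the same on both strands. It was found in 4 of 17 of the risen lipid genes with a window (23.5%), 1 of 5 of the fallen ones (20%, Lpin3), 7 of 40 of all lipid genes with one (17.5%) and 1243 of 10884 tested genes with one (11.4%), and in 11.9% of all risen and 12.3% of all fallen genes. The motif was chosen after the values were seen, overlap with other motifs was not examined, and a match is a description of the letters only.

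In the CDP-diacylglycerol branch, Cds2 rose and Pgs1 fell. Cds2 encodes the enzyme that makes CDP-diacylglycerol, and had 12356, 10418 and 8389 normalized reads in cells with sgRNA1 and 9317, 10985 and 9881 in cells with sgRNA2, against 6897, 6564 and 6652 in control (log2 0.60, SE 0.12, adjusted p = 0.00575 in limma). Pgs1, whose enzyme joins CDP-diacylglycerol to glycerol-3-phosphate on the way to cardiolipin, had 1065, 1451 and 1816 normalized reads in cells with sgRNA1 and 2242, 1229 and 2628 in cells with sgRNA2, against 3135, 3538 and 3469 in control. Both genes had no overlap between KO and control, and for Pgs1 the spread among KO libraries was wide (log2 -1.03, SE 0.27, adjusted p = 0.0149 in limma). The next enzyme gene, cardiolipin synthase Crls1, averaged 1675 ± 269 in KO and 1779 ± 93.9 in control (SD, n = 6 and 3) and did not pass (log2 -0.10, adjusted p = 0.586 in limma), nor did Cds1, at 33.2 ± 9.07 in KO and 23.3 ± 4.16 in control. The Pgs1 call was lost without control replicate 2 (adjusted p = 0.0643) or 3 (0.0595).

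In the choline branch, both choline kinase genes rose in the pooled comparison and the genes of later steps did not pass in it. Chka had 5036, 4031 and 4167 normalized reads in cells with sgRNA1 and 4683, 4193 and 3950 in cells with sgRNA2, against 3012, 2811 and 3068 in control, with every KO library above the controls (log2 0.55, SE 0.10, adjusted p = 0.00450 in limma). Chkb averaged 1442 ± 167 in KO and 971 ± 7.37 in control (SD, n = 6 and 3), again with no overlap (log2 0.56, SE 0.12, adjusted p = 0.00695 in limma). Pcyt1a, the gene of the rate-limiting enzyme that makes CDP-choline, averaged 5099 ± 301 in KO and 4764 ± 138 in control (log2 0.10, 95% interval -0.10 to 0.29). Its paralog Pcyt1b had 748, 637 and 567 normalized reads in cells with sgRNA1 and 611, 466 and 304 in cells with sgRNA2, against 794, 829 and 805 in control. All KO values of Pcyt1b were below the controls, the pooled change missed (log2 -0.60, SE 0.25, adjusted p = 0.0821 in limma), and that with sgRNA2 passed (log2 -0.87, SE 0.24, 0.0356). Chpt1, a choline phosphotransferase gene, had 6933, 6334 and 3608 normalized reads in cells with sgRNA1 and 3366, 5382 and 2361 in cells with sgRNA2, against 2864, 2717 and 2509 in control. Only sgRNA2 KO replicate 3 was under the controls, and Chpt1 missed in the pooled comparison (log2 0.69, adjusted p = 0.105 in limma) and passed with sgRNA1 (log2 1.01, SE 0.32, 0.0376). Cept1 did not pass (log2 0.18). Pemt, the methyltransferase gene of the other route to phosphatidylcholine, stood at 88, 96 and 226 in cells with sgRNA1 and 279, 170 and 460 in cells with sgRNA2, against 279, 281 and 284 in control, so that sgRNA1 KO libraries lay below the controls and sgRNA2 KO libraries on both sides of them (pooled adjusted p = 0.341 in limma).

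Within the choline branch, Chka and Chkb kept their calls whichever library was left out. Without sgRNA2 KO replicate 3 the pooled changes of Chpt1 and Pcyt1b passed in limma (adjusted p = 0.0215 and 0.0419), as they did with a variance for each group (0.0152 and 0.0106). The sgRNA1 call of Chpt1 was lost without sgRNA1 KO replicate 1 or 2 (adjusted p = 0.132 and 0.117), sgRNA2 KO replicate 1 (0.0519) or any 1 control (0.0807 to 0.109). The sgRNA2 call of Pcyt1b was lost without sgRNA1 KO replicate 2 (0.0507), sgRNA2 KO replicate 2 or 3 (0.0790 and 0.0506) or any 1 control (0.0923 to 0.122), and with quantile normalization (0.0515). Pemt missed with sgRNA1 (log2 -1.17, adjusted p = 0.0586), but passed without sgRNA1 KO replicate 3 (0.00685) or sgRNA2 KO replicate 2 or 3 (0.0397 and 0.0406), with a variance for each group (0.0158) and in a fit of the 6 libraries compared (0.0438). Of these, sgRNA1 KO replicate 3 was among the libraries nearest the controls, so leaving it out favors a pass. Exons of Chkb overlap those of Gm44502 on the same strand, so that reads there could be split between them.

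Of the 5 ethanolamine and serine branch genes tested, 3 rose and 2 did not pass, where 19.1% of all genes rose. The 3 were the serine branch genes Pisd, Ptdss1 and Ptdss2. Etnk1 and Pcyt2 of the ethanolamine branch, which encode its kinase and the enzyme that makes CDP-ethanolamine, did not pass. Pisd, whose mitochondrial enzyme turns phosphatidylserine into phosphatidylethanolamine, had 1941, 1807 and 2051 normalized reads in cells with sgRNA1 and 1922, 1940 and 2476 in cells with sgRNA2, against 1337, 1212 and 1187 in control. The KO libraries formed a narrow range clear of the controls (log2 0.69, SE 0.12, adjusted p = 0.00287 in limma). Ptdss1 and Ptdss2 encode the phosphatidylserine synthases that use phosphatidylcholine and phosphatidylethanolamine. Ptdss2 averaged 3237 ± 422 in KO and 2336 ± 21.4 in control (log2 0.46, SE 0.12, adjusted p = 0.0153 in limma), and Ptdss1 6183 ± 813 in KO and 4741 ± 78.9 in control (log2 0.37, SE 0.12, 0.0376), both SD with n = 6 and 3 and without overlap. Etnk1 averaged 5294 ± 1246 in KO and 6380 ± 144 in control (log2 -0.31), and Pcyt2 2868 ± 363 in KO and 2449 ± 137 in control (log2 0.22), and both missed (adjusted p = 0.236 and 0.192 in limma), though Pcyt2 passed with quantile normalization (0.0472). Ptdss2 missed without any 1 control (0.0550 to 0.0660), and Ptdss1 without sgRNA1 KO replicate 1 or 2 (0.0650 and 0.0642), sgRNA2 KO replicate 2 (0.0737) or any 1 control (0.0952 to 0.123). Exons of Pisd overlap those of Gm20671 and Gm43695 on the same strand, and pseudogene copies of Pisd exist, so its reads could be split.

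Lysophospholipid acyltransferases, which put a fatty acid back on lysophosphatidylcholine and related lipids, moved in both directions. Lpcat1 had 14703, 13795 and 12921 normalized reads in cells with sgRNA1 and 11255, 13429 and 9406 in cells with sgRNA2, against 7842, 6870 and 7026 in control. Its KO and control ranges were well apart (log2 0.78, SE 0.14, adjusted p = 0.00373 in limma). Lpcat4 had 180, 262 and 320 normalized reads in cells with sgRNA1 and 376, 232 and 328 in cells with sgRNA2, against 455, 557 and 521 in control, lower in all 6 KO libraries (log2 -0.89, SE 0.23, adjusted p = 0.0148 in limma). Lpcat3 averaged 3910 ± 502 in KO and 3127 ± 54.4 in control (SD, n = 6 and 3) and missed (log2 0.31, SE 0.12, adjusted p = 0.0677 in limma), but passed without sgRNA2 KO replicate 3 (0.0100), with quantile normalization (0.0304) and with a variance for each group (0.0106). Per kb, Lpcat1 stood at 2717 ± 417 normalized reads per kb in KO (SD, n = 6) and 1564 ± 113 in control (SD, n = 3). The Lpcat4 call was lost without control replicate 2 (adjusted p = 0.0724) or 3 (0.0617).

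**Figure D4:**
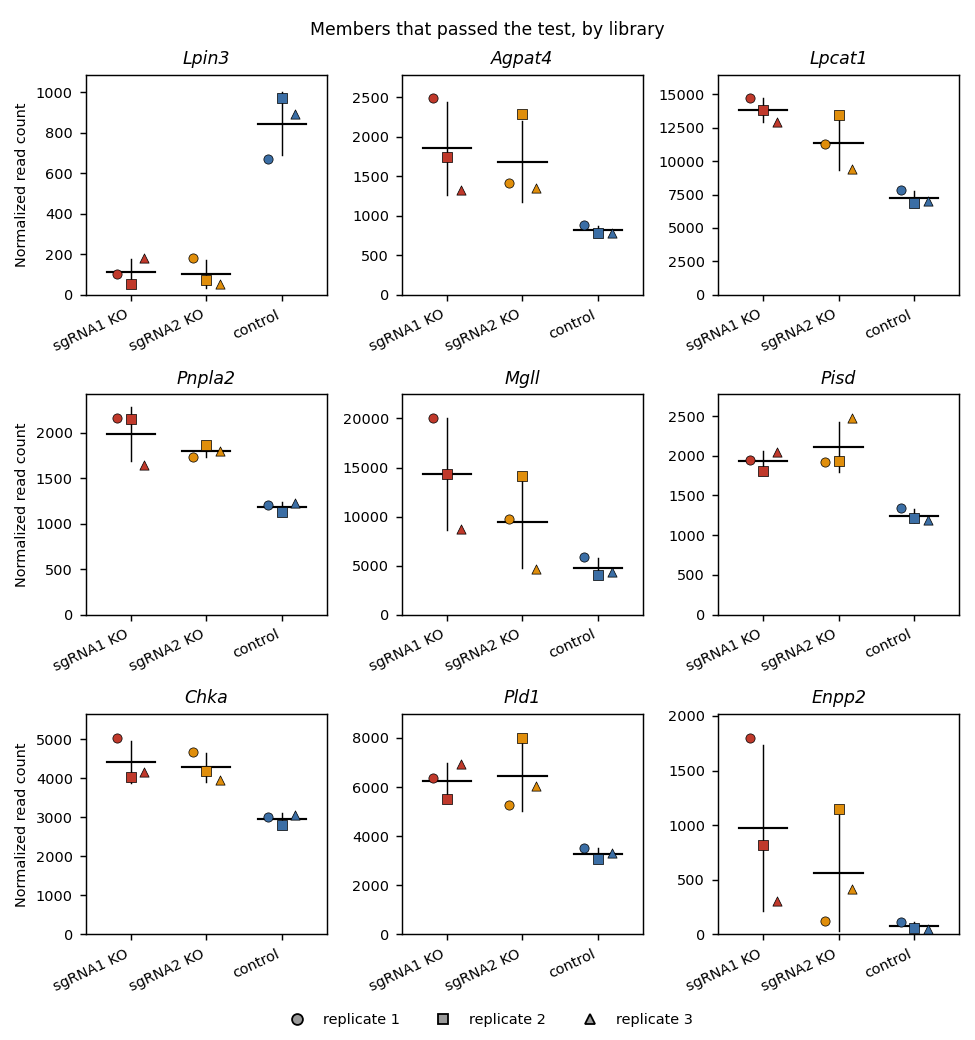
Normalized read count per library (y axes from 0) of 9 genes that passed, with KO groups left of control; bars are means and vertical lines SD (n = 3). Lpin3 lies at 53 to 184 in KO and 670 to 970 in control, while Enpp2 and Mgll are high in some KO libraries and near the controls in 1 of them.

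Phospholipid breakdown held the widest changes among the rises. Enpp2, which encodes autotaxin, the secreted enzyme that makes lysophosphatidate from lysophosphatidylcholine, had 1800, 823 and 303 normalized reads in cells with sgRNA1 and 126, 1152 and 414 in cells with sgRNA2, against 116, 57 and 47 in control. The groups did not overlap, but sgRNA2 KO replicate 1 was within 10 normalized reads of control replicate 1 (log2 2.997, SE 0.75, adjusted p = 0.0126 in limma). Both phospholipase D genes, whose enzymes release phosphatidate and choline from phosphatidylcholine, rose. Pld1 (chromosome 3, 27938695 to 28133362) had 6351, 5508 and 6934 normalized reads in cells with sgRNA1 and 5264, 8006 and 6062 in cells with sgRNA2, against 3502, 3060 and 3311 in control, evenly high across KO libraries (log2 0.94, SE 0.14, adjusted p = 0.00163 in limma). Pld2 had 2918, 2489 and 883 normalized reads in cells with sgRNA1 and 889, 1938 and 1326 in cells with sgRNA2, against 836, 563 and 646 in control, so that 2 KO libraries were just above the highest control (log2 1.22, SE 0.39, adjusted p = 0.0346 in limma).

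Pnpla6, the neuropathy target esterase gene, whose enzyme degrades phosphatidylcholine and lysophosphatidylcholine to glycerophosphocholine, averaged 2181 ± 346 in KO and 1141 ± 85.6 in control (SD, n = 6 and 3, log2 0.92, SE 0.15, adjusted p = 0.00224 in limma), with no overlap. Gdpd1, a lysophospholipase D gene, averaged 3169 ± 805 in KO and 1860 ± 53.7 in control (log2 0.72, SE 0.22, adjusted p = 0.0269 in limma). Pla2g4a, which encodes the cytosolic phospholipase A2 that releases arachidonate, was the breakdown gene that fell. It had 105, 39 and 87 normalized reads in cells with sgRNA1 and 389, 292 and 126 in cells with sgRNA2, against 531, 409 and 398 in control, lowest in sgRNA1 KO and close to the controls in sgRNA2 KO replicate 1 (log2 -1.74, SE 0.62, adjusted p = 0.0485 in limma). Gpcpd1, Gde1, Gdpd5 and Pla2g6 did not pass (log2 0.40, -0.06, 0.25 and 0.45). Among them Gpcpd1, whose enzyme splits glycerophosphocholine into glycerol-3-phosphate and choline, had 5508, 5087 and 3777 normalized reads in cells with sgRNA1 and 3420, 5538 and 1846 in cells with sgRNA2, against 3388, 2781 and 2824 in control. It was above the controls in 5 KO libraries and below them in sgRNA2 KO replicate 3, without which it passed (adjusted p = 0.0249 in limma), as did Pla2g6 (0.0168). Pla2g6 also passed with quantile normalization (0.0344) and with a variance for each group (0.00906).

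Pld1 and Pnpla6 kept their calls whichever library was left out. Enpp2 missed in limma without control replicate 2 (adjusted p = 0.0571) or 3 (0.0595), and Gdpd1 without sgRNA2 KO replicate 2 (0.0534) or any 1 control (0.0755 to 0.0956). Pld2 missed without sgRNA1 KO replicate 1 or 2 (0.05002 and 0.0576), sgRNA2 KO replicate 2 (0.0666) or any 1 control (0.0613 to 0.129). Pla2g4a missed without any library but sgRNA2 KO replicates 1 and 2 (0.0523 to 0.139), without the filter (0.0509) and with quantile normalization (0.0555).

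**Figure D5:**
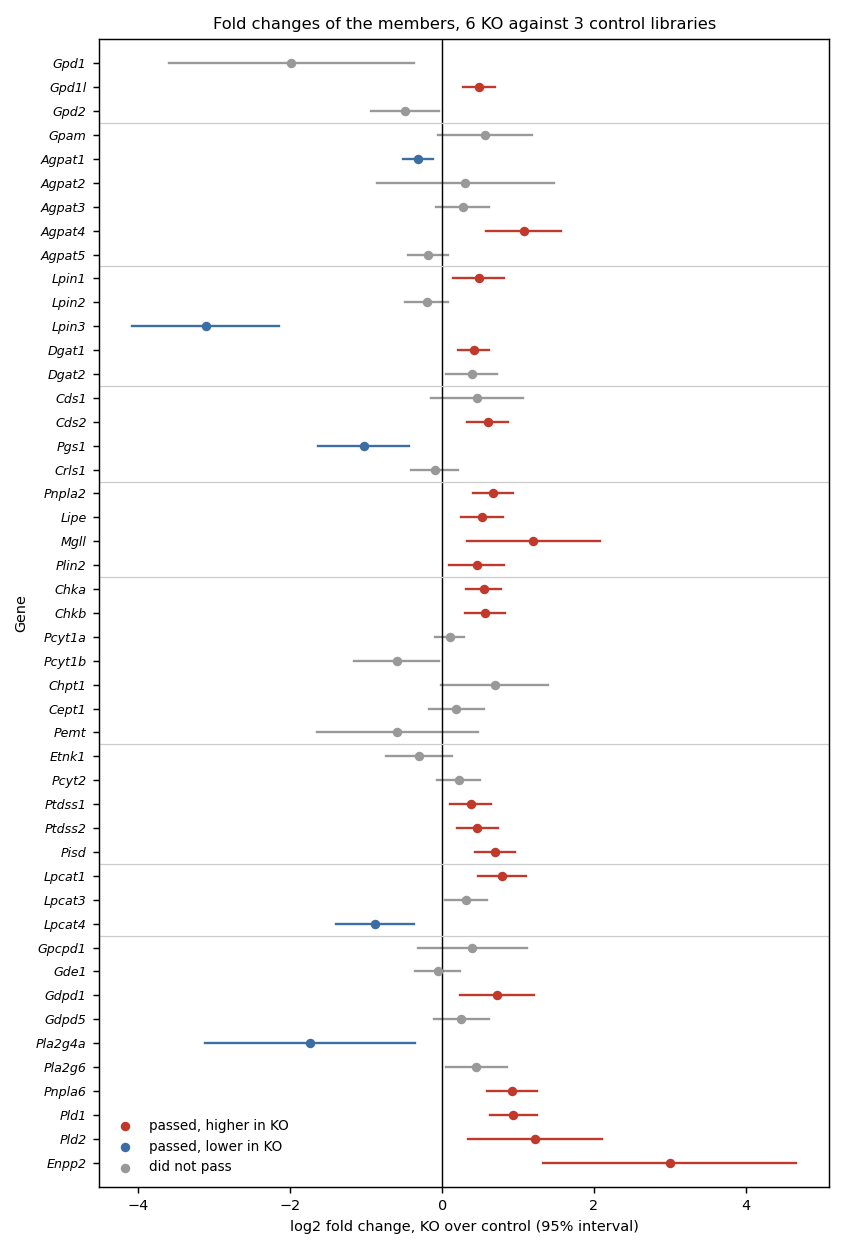
Log2 fold change of KO over control in limma (x axis) with its unadjusted 95% interval for the 47 genes tested (y axis, grouped by role); red passed higher, blue passed lower, grey did not pass. The changes that passed run from -3.12 for Lpin3 to 2.997 for Enpp2, with 18 of 25 inside 1 log2 unit.

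Each guide was also set against the same 3 controls. With sgRNA1, 18 of the 47 genes rose and 6 fell in limma, where 17.1% of all genes rose, 18.9% fell and 36.0% passed in either direction. With sgRNA2, 13 rose and 2 fell, where 11.4% of all genes rose, 10.7% fell and 22.1% passed. The 14 genes that passed with both guides were Gpd1l, Agpat4, Dgat1, Cds2, Pnpla2, Lipe, Chka, Chkb, Ptdss2, Pisd, Lpcat1, Pnpla6 and Pld1, which rose, and Lpin3, which fell. Both comparisons used the same 3 controls, so their calls are not independent. The shares of all genes that passed with both guides, or with 1 alone, were not counted. Lpin3 had a log2 fold change of -3.02 (SE 0.52) with sgRNA1 and -3.21 (SE 0.52) with sgRNA2, and Pld1 of 0.92 (SE 0.17) and 0.95 (SE 0.17). The 10 genes that passed with sgRNA1 alone were Gpd1, Agpat1, Lpin1, Pgs1, Mgll, Chpt1, Lpcat4, Pla2g4a, Pld2 and Enpp2, and the gene that passed with sgRNA2 alone was Pcyt1b. For Gpd1 the values were -2.50 (SE 0.80, adjusted p = 0.0391 in limma) with sgRNA1 and -1.47 (SE 0.80, 0.203) with sgRNA2. The sgRNA1 call of Gpd1 was lost without any library but sgRNA1 KO replicate 3 and sgRNA2 KO replicate 2 (adjusted p = 0.0512 to 0.124) and in a fit of the 6 libraries compared (0.0700), whereas its change with sgRNA2 passed in such a fit (0.00458) and without sgRNA1 KO replicate 3 (0.00918). The counts with sgRNA1 were 6 and 2 without sgRNA1 KO replicate 1 (980 and 972 of all genes). Without its replicate 2 they were 8 and 3 (1198 and 1150). Without control replicates 1, 2 and 3 they were 10 and 4 (1426 and 1385), 4 and 2 (680 and 587), and 4 and 2 (809 and 732). With sgRNA2 the counts were 4 and 1 without sgRNA2 KO replicate 2 (720 and 711 of all genes). Without sgRNA1 KO replicate 3 they were 17 and 7 (2615 and 2865), and without its replicate 2 they were 11 and 1 (1602 and 1462). Without control replicates 1, 2 and 3 they were 4 and 1 (689 and 631), 0 and 1 (329 and 314), and 1 and 1 (352 and 336).

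No gene passed between sgRNA1 KO and sgRNA2 KO in limma, among the 47 or among all 15827 (0% of genes tested). At an unadjusted p under 0.05 there were 3 of the 47 and 474 of all genes (2.99%). The 3 were Pla2g4a (log2 -1.76, 95% interval -2.82 to -0.70, sgRNA1 over sgRNA2), Pemt (-1.16, -2.13 to -0.20) and Agpat2 (-1.14, -2.28 to 0.00), each lower with sgRNA1 and each with an adjusted p of 0.778. The unadjusted 95% interval of the difference reached 0.24 to 1.91 log2 units to either side over the 47 genes, with a median of 0.41. Estimated differences under these sizes could not be told from 0, and the adjusted test missed larger ones too, as for Pla2g4a. The fit shares a variance per gene across the 3 groups. Controls spread less than KO libraries (median SD of the members 0.0665, against 0.275 and 0.285, log2), so these intervals may be too narrow. Without sgRNA1 KO replicate 3, Gpd1 passed in this comparison in limma (log2 -2.15, SE 0.34, adjusted p = 0.0435), where 182 of all 15827 genes passed. The library left out held the most Gpd1 of the KO libraries (21351 normalized reads). Leaving it out favors this pass, which adds no support.

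Other genes of the same pathways, from a list written beside the 49, moved both ways: 22 of 73 tested rose, 13 fell and 38 did not pass. Of the 47, 42.6% rose and 10.6% fell, and of all genes 19.1% rose and 20.2% fell. The median log2 fold change was 0.04 over the 73, against 0.40 over the 47. Other phospholipid breakdown genes had 11 of 20 risen and 2 fallen (median log2 0.68). Other glycerolipid synthesis genes had 4 and 4 of 25 (-0.21), and other phospholipid synthesis genes 4 and 5 of 16 (-0.05). Other droplet and lipolysis genes had 3 and 2 of 12 (0.02). No list was tested against other genes. The 4 genes with the smallest adjusted p in each direction and a mean of at least 50 follow. Taz, the tafazzin gene of cardiolipin remodelling, averaged 1726 ± 115 in KO and 1083 ± 88.6 in control (log2 0.67, SE 0.10, adjusted p = 0.00201 in limma). The droplet coat gene Plin3 averaged 276 ± 150 in KO and 51.0 ± 10.4 in control (log2 2.28), Abhd4, a lysophospholipase gene of N-acyl phospholipids, 20193 ± 5595 in KO and 8574 ± 294 in control (log2 1.19), and Pld3, a lysosomal nuclease gene of the phospholipase D family, 2657 ± 738 in KO and 1179 ± 22.1 in control (log2 1.13). Lypla2, an acyl-protein thioesterase and lysophospholipase gene, averaged 2676 ± 372 in KO and 7262 ± 365 in control (log2 -1.45, SE 0.13, adjusted p = 0.000383 in limma). Lpl, lipoprotein lipase, averaged 156 ± 104 in KO and 882 ± 47.6 in control (log2 -2.76), Mboat1, a lysophospholipid acyltransferase gene, 207 ± 146 in KO and 1044 ± 17.01 in control (log2 -2.62), and Lpgat1, a lysophosphatidylglycerol acyltransferase gene, 797 ± 255 in KO and 1910 ± 149 in control (log2 -1.33). All SDs here are over 6 KO and 3 control libraries.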

How the data were processed

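The authors deposited 1 score per gene and library: a normalized read count, rounded to whole numbers. STAR 2.4.1d and featureCounts, with DESeq2 and the mm10 build, are named in the submitters' processing notes; the annotation release and the strand setting are not given in the sources used here. The unit of the scores is not stated in the labels. It was inferred from the table being labelled normalized and from its whole-number values. Raw counts were not used here, so no count model was run. The sequencing depth is unknown, since the totals are those after scaling.

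Values were taken as log2(value + 1), which understates changes of low genes, and genes averaging 10 or more across the 9 libraries (15827) entered limma 3.58.1 in R 4.3.3. The trend option was on, tests were two-sided, and p-values were adjusted over all genes by the Benjamini-Hochberg method. KO against control used 2 groups, and the guide comparisons 3 groups in 1 fit. Standard errors and intervals are limma's. Positions, exon lengths and overlaps came from GENCODE M21 (21817 of 21899 genes matched, 99.6%), and promoter windows from RefSeq (GRCm38.p6, 40 of the 49 genes matched). Exons of 22 of the 49 genes overlap a gene on the opposite strand, whose reads cannot be told apart if counting ignored strand. Figures used Python 3.11.15 with matplotlib 3.10.9.

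The members and lists were chosen with earlier results of these data known. Named were the 3 dehydrogenases, every member that passed in a comparison, the others by counts and ranges, and, of other pathway genes, the 4 with the smallest adjusted p each way with a mean of at least 50.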

Additional observations from a re-analysis of the deposited data

Results flagged for a closer look

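Among the 6 KO libraries, 1 stood far from the other 5 for 2 of the 47 genes tested, on the log2 scale (chance gives such a gap in about 1 group in 20). The count of 2 in 47 is near that chance rate, so it is no result about these genes. The share over all genes was not counted. Gde1, a glycerophosphodiester phosphodiesterase gene, had 5117 normalized reads in sgRNA2 KO replicate 3, with the other KO libraries between 3393 and 3787 and the controls between 3940 and 4091. Agpat2 had 11 normalized reads in sgRNA1 KO replicate 2, with the other KO libraries between 42 and 80 and the controls between 25 and 44.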

How the results depend on the processing

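Members that rose and fell in KO against control were 20 and 5, and ranged over the 9 fits that left out 1 library from 11 to 23 and from 1 to 7. For sgRNA1 the ranges were 4 to 25 (18 as reported) and 2 to 8 (6), for sgRNA2 0 to 17 (13) and 1 to 7 (2), and between guides 0 to 1 (0). Over all genes the pooled ranges were 1465 to 3639 risen and 1312 to 3958 fallen. With sgRNA1 they were 680 to 3740 and 587 to 4160, and with sgRNA2 329 to 2615 and 314 to 2865. Between guides, 0 to 182 of all genes passed. With both libraries nearest the controls left out, the falls were 8 pooled (3962 of all genes) and 8 with sgRNA2 (3281). The rises with sgRNA2 were then 20 (2962 of all genes). Quantile normalization gave 3 falls pooled (2825 of all genes) and 1 with sgRNA2 (1463). A variance for each group gave 8 falls pooled (4661), and the fit of only the libraries compared gave 4 falls with sgRNA2 (2522). The permutation p of Gpd1 ran from 0.0357 to 0.107 with 1 library left out, where without a control the smallest p possible is 0.0357; on linear values it was 0.0119, the smallest of 84 splits. The cause of these changes was not tested. Leaving out a library also leaves fewer degrees of freedom, and the part of this was not tested either. Of 25 calls pooled, 12 were kept in all 9 fits that left out a library, and 22 in all other settings. No named gene reversed. Replicate numbers did not pair the libraries. Same-numbered KO libraries correlated at 0.959, 0.979 and 0.968 in log2 values. After each gene's group mean was subtracted, they correlated at -0.345, 0.332 and 0.075. Not every library correlated best with its own number, so the replicate block is a check only. Under it 19 rose and 4 fell pooled (2834 and 2952 of all genes), 16 and 7 with sgRNA1 (2433 and 2808) and 9 and 2 with sgRNA2 (1355 and 1277). Plin2 and Pla2g4a then missed in limma (adjusted p = 0.0788 and 0.0621). Of all genes, 6227 were called, and 2777 without control replicate 2, and the spread of the controls, 0.0665 (median SD of the members, log2), was far below the 0.275 and 0.285 of sgRNA1 KO and sgRNA2 KO.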
